A study of Mus musculus with 12 samples.

Results

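The fatty acid binding proteins described here are Fabp1, Fabp2, Fabp3, Fabp4, Fabp5 and Fabp7, 6 of the 24983 genes in a table of RNA-seq counts from mouse liver. They were chosen by name, with earlier results of these data known, and all 6 passed the filter on low counts. Their RNA was followed across 4 groups of 3 C57BL/6J mice, 1 library per animal. The study asked about nitro-fatty acids in fatty liver brought on by diet.

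Fatty acid binding proteins are small cytosolic barrels that hold a long-chain fatty acid in a water-filled cavity and carry it between membranes, droplets, mitochondria and the nucleus. Each is named for the tissue in which it was first found, although several are made in more than one tissue. In hepatocytes the liver form, Fabp1, is one of the most abundant cytosolic proteins, and its gene is a classical target of PPAR-alpha, a nuclear receptor for fatty acids. Fabp2 is the intestinal form, Fabp3 the form of heart and muscle, Fabp4 that of adipocytes and also of macrophages, Fabp5 that of epidermis and also of macrophages, and Fabp7 that of brain and glia.

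C57BL/6J mice kept 24 weeks on chow formed the reference group. Mice of the remaining groups were kept 24 weeks on a NASH diet, named for nonalcoholic steatohepatitis, the inflamed form of fatty liver. It drew 40% of its calories from fat and held saturated and trans fats, fructose and cholesterol. All of these mice carried an osmotic minipump under the skin. In the vehicle group it released polyethylene glycol alone, and in the OA and OA-NO2 groups it released 5 mg/kg/day of the fatty acid in that solvent. OA is oleic acid, and OA-NO2 is its nitro form, which carries a nitro group. Since the labels name a pump only for mice on the NASH diet, diet and pump cannot be told apart in a comparison with chow. The labels name no engineered allele in any group.

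Total counts ran from 8462590 in chow replicate 1 to 20613777, with the second lowest library at 15972613. The 6 genes took 0.336% to 0.709% of a library's counts, and the total for Fabp3 was at most 70 counts in any library. On the first principal component, with 46.4% of the variance, OA replicate 3 lay at -13.48, apart from OA replicates 1 and 2 at 49.62 and 39.99. Levels are normalised read counts (CPM) on library totals scaled by TMM, a trimmed mean of log ratios. Plain library size in its place moved the median log2 fold change over chow of the tested genes to 0.51 (vehicle), 0.42 (OA) and 0.34 (OA-NO2), so the comparisons with chow are relative to the TMM scale. edgeR's quasi-likelihood test was run on the 14469 genes that passed the filter, and "called" means an adjusted p under 0.05.

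On GRCm38, in the GENCODE M21 annotation, Fabp1 (ENSMUSG00000054422) lies at chr6:71199827-71205023 and Fabp2 (ENSMUSG00000023057) at chr3:122895072-122899506. Fabp3 (ENSMUSG00000028773) lies at chr4:130308595-130315463 and Fabp7 (ENSMUSG00000019874) at chr10:57784881-57788450. Fabp5 (ENSMUSG00000027533, chr3:10012548-10016607) and Fabp4 (ENSMUSG00000062515, chr3:10204088-10208576) flank 2 further members of the gene family, Pmp2 and Fabp9, on chromosome 3. That cluster, which ends with Fabp12, spans 288636 bases. Fabp4 is read from the minus strand and the other 5 genes from the plus strand. The coding sequences of the 6 genes, 381 to 405 bases long, were 50.6% to 66.9% identical between pairs. Their longest shared run was 20 bases (Fabp3 and Fabp7), against reads of 76 bases.

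Stretches of 76 bases found elsewhere among annotated transcripts were absent from the principal transcripts of Fabp1, Fabp2, Fabp4 and Fabp7. Of the 748 such stretches of Fabp3, 25.7% also occurred in another annotated gene. Most of these, 181, lay in its processed pseudogene Fabp3-ps1, which held 3 counts over the 12 libraries. A further 11.8% of the 912 stretches of Fabp5 occurred in the pseudogene Gm6166, which held 8 counts in all. Fabp3 also overlaps Gm10570 (by 80 bases) and Zcchc17 (by 81 bases) on the opposite strand. How the authors' counting treated strand and reads with several positions is not given in the sources used here, so the low counts of Fabp3 carry that uncertainty.

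Promoter sequence from RefSeq (GRCm38.p6) was at hand for 4 of the 6 genes, Fabp1, Fabp2, Fabp3 and Fabp7. The stretches of Fabp1 and Fabp2 are shown because these members lay the smallest distance apart across the libraries, a distance not scaled for spread. That of Fabp3 is shown because it was the member with 0 counts in chow. Each was searched over the 250 bases before the RefSeq start, and the bases before both that start and the GENCODE gene start are printed, plus strand, 5′ to 3′. Capitals mark a match to a DR1 element, the direct repeat bound by PPAR with its partner RXR.
Fabp1, chr6:71199629-71199826: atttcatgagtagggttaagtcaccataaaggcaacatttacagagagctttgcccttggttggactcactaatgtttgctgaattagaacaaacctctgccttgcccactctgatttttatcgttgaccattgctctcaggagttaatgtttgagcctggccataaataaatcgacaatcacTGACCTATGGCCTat
Fabp2, chr3:122894822-122895071: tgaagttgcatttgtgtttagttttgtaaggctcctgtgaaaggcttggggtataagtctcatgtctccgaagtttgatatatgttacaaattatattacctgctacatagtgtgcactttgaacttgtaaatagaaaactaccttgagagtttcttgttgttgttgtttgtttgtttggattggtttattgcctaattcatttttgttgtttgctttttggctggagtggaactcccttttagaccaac
Fabp3, chr4:130308488-130308594: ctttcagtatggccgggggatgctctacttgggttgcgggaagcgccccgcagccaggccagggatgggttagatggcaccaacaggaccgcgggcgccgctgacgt
The DR1 motif searched, on both strands, was the repeat AGGTCA, then any 1 base (N), then AGGTCA again. In Fabp1 it matched on the minus strand with 1 mismatch among its 12 scored bases (TGACCTATGGCCT as read on the plus strand), 67 to 55 bases before the RefSeq start. A match with at most 1 mismatch was present in 0.484% of 32851 RefSeq promoters over the same length, and one with at most 2 mismatches in 3.24%. The half-site AGGTCA, which lies inside the longer motif and was held by 14.02% of promoters, occurred in Fabp1 at 67 to 62 and again at 9 to 4 bases before the start, and in Fabp7 at 171 to 166. TATAAA, held by 12.4%, occurred in Fabp1 at 30 to 25 bases before the start. This match and the half-site at 9 to 4 lie in the last 52 bases of the Fabp1 window, inside the GENCODE gene, and are not in the printed stretch. The windows of Fabp2 and Fabp3 held none of these letters. A match is a description of the sequence, and no binding was measured.

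Per kilobase of the principal transcript (RPKM), Fabp1 stood far above the other members in every group. Its share of the summed RPKM of the 6 genes was 97.2% in chow, and on the NASH diet it was 95.2% (vehicle), 95.2% (OA) and 95.9% (OA-NO2). Mean Fabp1 was 11694 RPKM ± 2816 in chow (SD, n = 3) and mean Fabp2 was 307 ± 55.6, the second highest.

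Below these, the order depended on the group. In chow it ran Fabp5 (12.0 ± 10.2), Fabp4 (8.25 ± 1.73), Fabp7 (6.63 ± 3.63) and Fabp3 (0), and the values of Fabp5, Fabp4 and Fabp7 overlapped between animals. In vehicle Fabp4 came next after Fabp2, at 66.7 RPKM ± 29.5, between 33.1 and 88.6, above the highest animal of Fabp7 and Fabp5. Fabp7 (12.8 ± 2.05) and Fabp5 (12.7 ± 5.07) did not differ beyond their spread there, and Fabp3 was lowest at 2.53 ± 1.17. The same order held with OA and with OA-NO2, in which Fabp4 averaged 55.0 ± 42.3 and 51.0 ± 28.4 RPKM. In the OA group the lowest Fabp4 animal, at 18.3 RPKM, fell within the range of Fabp7 and Fabp5.

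**Figure D1:**
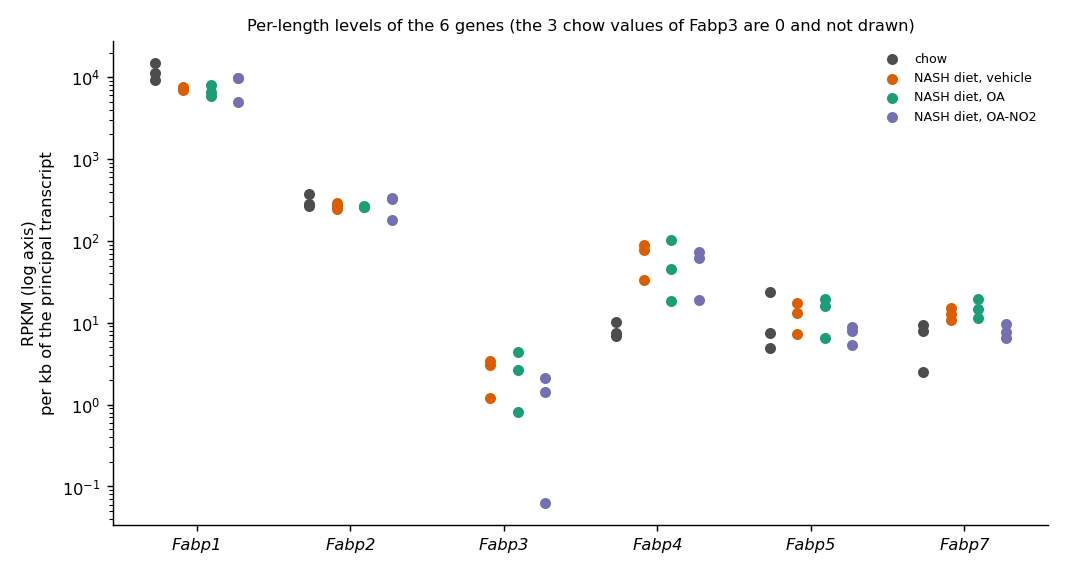
RPKM of each gene on a log axis, 1 point per liver, coloured by group. Fabp1 and Fabp2 sit above the other members in every liver, Fabp4 moves from the band of Fabp5 and Fabp7 in chow to above it in the vehicle livers, and Fabp3, not drawn in chow, is 0 there.

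Between vehicle and chow, the members called were the heart form Fabp3 and the adipocyte form Fabp4, and both were higher on the NASH diet. That is 2 of 6 higher and 0 of 6 lower, against a background of 11.1% of the tested genes called higher and 8.16% called lower (19.3% in either direction). The median log2 fold change of the 6 members was 0.47, and that of all tested genes was -0.01. At an unadjusted p under 0.05 the members numbered 4, with Fabp1 lower and Fabp7 higher added, and 33.7% of tested genes passed that level. On library size alone 5758 genes were called, 95.7% of them higher, and the members among them were Fabp3, Fabp4 and Fabp7.

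Fabp4, the adipocyte and macrophage form, measured 6.24, 9.15 and 6.79 CPM in chow replicates 1 to 3. With vehicle it measured 29.6, 70.2 and 79.4 CPM. All 3 vehicle livers stood above all 3 chow livers, and vehicle replicate 1 was the lowest of its group. The log2 fold change was 2.996 ± 0.62 (SE, 95% interval 1.67 to 4.32, edgeR adjusted p = 0.00714), a ratio of means of 8.08. With OA the values were 90.8, 40.6 and 16.4 CPM, and with OA-NO2 they were 55.7, 16.8 and 64.6 CPM. OA replicate 3 and OA-NO2 replicate 2 were low in their groups, and both still exceeded the highest chow liver.

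Fabp4 was called between OA and chow as well (log2 fold change 2.72 ± 0.61, edgeR adjusted p = 0.0172). Between OA and chow the members called were again Fabp3 and Fabp4, both higher, 2 of 6 against 6.33% of tested genes called higher, 2.23% called lower and 8.56% called in all. The call of Fabp4 was lost without any 1 of the chow libraries or without OA replicate 1, when the adjusted p lay between 0.0541 and 0.0861. Its log2 fold change was then 1.94 without OA replicate 1 and 2.63 to 2.91 without a chow library, and over the 6 fits that leave out 1 library it ran from 1.94 to 3.09. Between OA-NO2 and chow the log2 fold change of Fabp4 was 2.61 ± 0.61 and missed the threshold in edgeR (adjusted p = 0.064). DESeq2 called it (adjusted p = 0.00697), as did edgeR with no filter (0.0089), with library size alone (0.0246), on these 2 groups only (0.0268) and without OA-NO2 replicate 2 (0.0415). No member was called by edgeR between OA-NO2 and chow, where 0.684% of tested genes were (0.435% higher, 0.249% lower). Fabp3 and Fabp4 had an unadjusted p under 0.05 there, as had 18.8% of tested genes, and DESeq2 called both. They were also the 2 of 6 members whose groups did not overlap, against 21.5% of tested genes (12.3% higher, 9.27% lower).

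Fabp3, the heart and muscle form, had 0 counts in each of the 3 chow livers. In the vehicle livers it had 21, 52 and 59 counts (0.978, 2.77 and 2.49 CPM), with OA 70, 43 and 11 counts, and with OA-NO2 23, 1 and 29 counts. Every NASH-diet liver held at least 1 count, and the lowest of the OA and OA-NO2 groups were again OA replicate 3 and OA-NO2 replicate 2. Set against a floor of 3 counts over the chow group, the pooled level was at least 25.2-fold higher with vehicle, at least 27.1-fold higher with OA and at least 11.7-fold higher with OA-NO2. These bounds cover counting error only. Over chow, the edgeR adjusted p was 0.0131 (vehicle), 0.021 (OA) and 0.119 (OA-NO2), and DESeq2 put the last at 0.00247.

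The OA call of Fabp3 was lost without any 1 of the chow libraries, without OA replicate 1 or without OA replicate 2 (adjusted p 0.0543 to 0.0714). Adding the counts of Fabp3-ps1 to Fabp3 changed no call. The call of Fabp3 and of Fabp4 between vehicle and chow held under all 12 alternatives tried for it.

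Fabp1, the liver form, was the largest member and lay lower in vehicle than in chow without being called. Chow livers measured 5075, 8149 and 6177 CPM, and vehicle livers measured 3937, 4178 and 3882 CPM. The groups did not overlap, and the vehicle values were close together. For Fabp1 the log2 fold change was -0.69 ± 0.27 (SE, 95% interval -1.27 to -0.12, edgeR adjusted p = 0.0853). DESeq2 gave -0.69 with an adjusted p of 0.031, and library size alone gave -0.18 with 0.531. Non-overlap was common: 39.4% of tested genes had groups that did not overlap in vehicle over chow, 20.4% higher and 19% lower, and 4 of the 6 members did (Fabp3, Fabp4 and Fabp7 higher, Fabp1 lower).

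In the OA group Fabp1 measured 3278, 3634 and 4434 CPM, also below every chow liver, with a log2 fold change of -0.77 ± 0.27 over chow (edgeR adjusted p = 0.0877, DESeq2 0.0213). In that comparison 30.9% of tested genes did not overlap (16.7% higher, 14.2% lower), and 5 of the 6 members did not, Fabp5 being the exception. With OA-NO2 Fabp1 measured 2774.5, 5325 and 5420.2 CPM, and the range overlapped that of chow. Its log2 fold change over chow was -0.52 ± 0.27 (edgeR adjusted p = 0.306). OA-NO2 replicate 1 was the lowest of the 12 livers for Fabp1 and, as shown next, for Fabp2.

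Fabp2, the intestinal form, was the steadiest member. It measured 274, 358 and 258 CPM in chow, 239, 282 and 260 with vehicle, and 251, 249.7 and 257 with OA. With OA-NO2 it measured 171, 324 and 311 CPM. The groups overlapped except in OA over chow, where the highest OA liver lay just below the lowest chow liver, and no comparison called it. Its log2 fold change was -0.19 ± 0.22 for vehicle over chow (95% interval -0.65 to 0.28, edgeR adjusted p = 0.575), and that direction was not stable, being 0.33 with library size alone.

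Because Fabp1 outweighs the rest, the summed CPM of the 6 genes followed it. The sum was 6788 ± 1606 CPM in chow against 4344 ± 189 in the vehicle group (SD, n = 3), and 4112 ± 549.9 and 4836 ± 1577 in the OA and OA-NO2 groups. The 4 minor members without Fabp1 and Fabp2 summed to 24.6 ± 10.8 CPM in chow and 84.6 ± 33.0 with vehicle. They summed to 77.5 ± 48.7 with OA and 60.4 ± 26.9 with OA-NO2. The minor sum overlapped that of chow in the OA and OA-NO2 groups, whose lowest livers held 32.6 and 29.8 CPM against a highest chow liver of 36.6. In the 3 NASH-diet groups Fabp4 was the largest of the minor members, and in chow Fabp5 was.

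**Figure D2:**
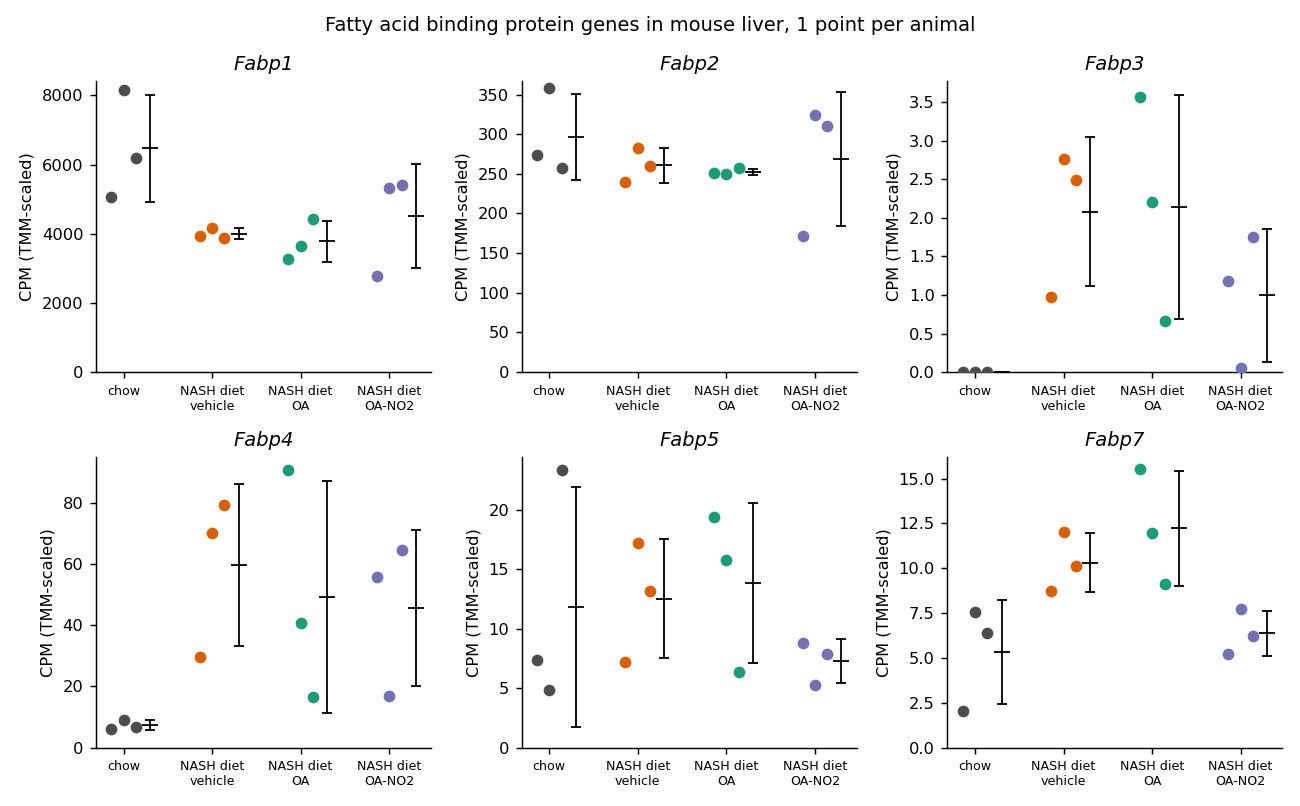
CPM of each gene in the 12 livers, 1 point per animal with the group mean and SD beside it, each panel with its own linear axis from 0. Fabp4 and Fabp3 are low or 0 in the chow livers, and within the OA and OA-NO2 groups 1 liver lies well below the others in both genes.

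Fabp5, the epidermal and macrophage form, showed no difference that held against its spread. Chow livers measured 7.33, 4.82 and 23.4 CPM, so chow replicate 3 was the highest of the 12 livers. Vehicle livers measured 7.22, 17.2 and 13.1 CPM. The OA livers were at 19.4, 15.8 and 6.38 CPM, and the OA-NO2 livers at 8.80, 5.23 and 7.85. For vehicle over chow the Fabp5 log2 fold change was 0.05 ± 0.52 (95% interval -1.07 to 1.17, edgeR adjusted p = 0.959), and without chow replicate 3 it became 1.07 (adjusted p = 0.137). Over chow it was 0.20 ± 0.52 with OA (adjusted p = 0.844) and -0.73 ± 0.53 with OA-NO2 (adjusted p = 0.479).

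Fabp7, the brain form, measured 2.03, 7.57 and 6.40 CPM in chow, and chow replicate 1, the shallowest library, was the lowest of the 12. With vehicle it measured 8.76, 12.0 and 10.1 CPM, all above chow. With OA it measured 15.5, 12.0 and 9.15 CPM, and with OA-NO2 it measured 5.20, 7.72 and 6.22. The OA-NO2 livers thus lay within or near the chow range and below every vehicle and OA liver. The log2 fold change was 0.88 ± 0.33 for vehicle over chow (edgeR adjusted p = 0.0795) and 1.13 ± 0.33 for OA over chow (adjusted p = 0.0523), both short of the threshold. DESeq2 called both (0.0372 and 0.0104), as did library size alone (0.0116 and 0.0108). For OA over chow, edgeR called it with no filter (0.0236) and without OA replicate 3 (0.0301). OA-NO2 over chow gave 0.19 ± 0.34 for Fabp7 (adjusted p = 0.793).

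OA and OA-NO2 were given at the same dose of 5 mg/kg/day and differ by the nitro group, so OA-NO2 over OA was made at matched dose and time, while each comparison with vehicle sets a fatty acid against the solvent alone. No member was called by edgeR or by DESeq2 in any of these 3 comparisons, where edgeR called 0% (OA over vehicle), 0.0207% (OA-NO2 over vehicle) and 0.00691% (OA-NO2 over OA) of tested genes. An unadjusted p under 0.05 was reached by 0, 0 and 1 of the 6 members in turn, and by 3.9%, 15.8% and 12% of tested genes. The exception was Fabp7 in OA-NO2 over OA, with a log2 fold change of -0.94 ± 0.32 (95% interval -1.64 to -0.24, unadjusted p = 0.0121, edgeR adjusted p = 0.347, DESeq2 0.185). Every OA-NO2 liver was below every OA liver for Fabp7, as were 7.37% of tested genes (6.98% were above, so 14.3% did not overlap in either direction).

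Against vehicle, Fabp7 with OA-NO2 also did not overlap and was lower by ratio, at 0.618 of the vehicle mean (log2 fold change -0.69 ± 0.32, 95% interval -1.39 to 0.01, adjusted p = 0.322). In OA-NO2 over vehicle 10.5% of tested genes lay lower without overlap and 9.18% higher, 19.7% in either direction. Fabp7 was the single member of 6 whose groups did not overlap in each of these 2 comparisons, and none did in OA over vehicle, where 13.1% of genes did (7.81% higher, 5.31% lower). The comparisons share the OA-NO2 livers.

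For the other members the intervals of OA-NO2 over OA were wide. They ran from -0.32 to 0.83 for Fabp1 and from -0.38 to 0.56 for Fabp2. For Fabp4 the log2 fold change was -0.11 ± 0.55 (-1.29 to 1.07) and for Fabp5 it was -0.93 ± 0.52 (-2.06 to 0.20). Fabp3 gave -1.13 ± 0.79 (-2.86 to 0.60). A 2-fold difference between the fatty acids, which is 1 on the log2 scale, thus lay inside the interval for Fabp3, Fabp4 and Fabp5 and outside it for Fabp1 and Fabp2. OA over vehicle gave log2 fold changes from -0.28 (Fabp4) to 0.25 (Fabp7), and the adjusted p of the 6 was 0.975 or more. OA-NO2 over vehicle ran from -1.07 (Fabp3, adjusted p = 0.535) to 0.17 (Fabp1, adjusted p = 0.789).

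**Figure D3:**
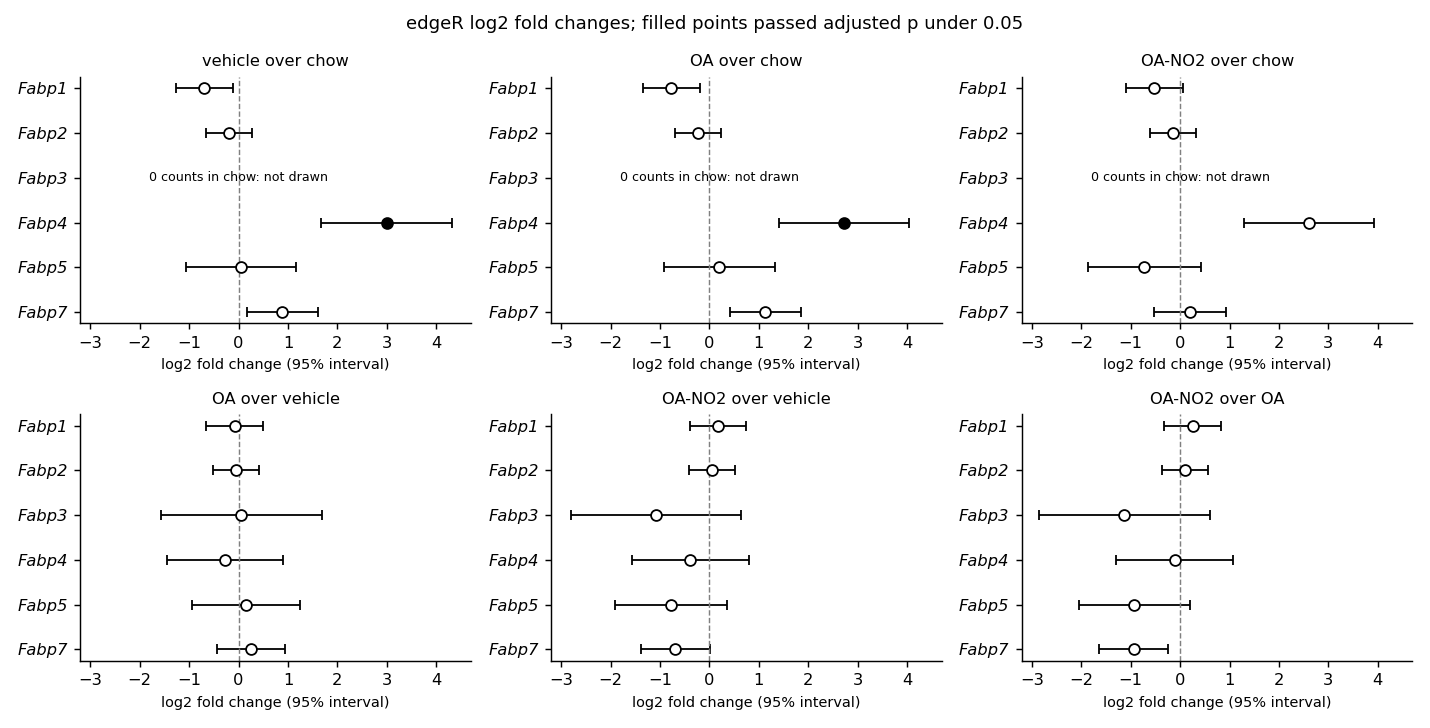
Log2 fold change and 95% interval of each gene in the 6 comparisons, filled where edgeR's adjusted p was under 0.05. The filled points are Fabp4 in vehicle over chow and OA over chow. Fabp3 was also called in those 2 comparisons but is not drawn over chow, since chow had 0 counts.

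Markers of the cell types in which these proteins are known were read beside them. In bulk tissue, fewer cells of a type and less RNA per cell cannot be told apart. Of 9 markers of recruited and lipid-associated macrophages, all 9 were called higher in vehicle over chow (median log2 fold change 3.996), 9 in OA over chow, and 1 in OA-NO2 over chow. Their summed CPM ranged from 58.6 to 119.5 in chow, 364 to 670.2 with vehicle, 219 to 743 under OA and 145 to 259 under OA-NO2. The lowest OA liver by this sum was OA replicate 3 and the lowest OA-NO2 liver was OA-NO2 replicate 2, the same livers that were lowest for Fabp3 and Fabp4. Markers of some other cell types were lowest in the same livers too. The cholangiocyte sum was 43.8 CPM in OA replicate 3 and 61.7 in OA-NO2 replicate 2, and the stellate cell sum 146 and 106, each the lowest of its group. So was the sum of glia and Schwann cell markers, at 5.84 and 4.61 CPM. The adipocyte sum went the other way and was the highest of its group in these livers, at 83.4 and 130 CPM. Other lists were mixed. In OA replicate 3 the hepatocyte (118281 CPM) and endothelial (247 CPM) sums were the highest of the group and the Kupffer cell sum (464 CPM) the lowest. In OA-NO2 replicate 2 the Kupffer cell sum (577.5 CPM) was the highest of the group and the endothelial sum (199 CPM) the lowest. Of 8 cholangiocyte markers 6, and of 8 stellate cell markers 5, were called higher in vehicle over chow. The part of these cell types in the levels of Fabp3, Fabp4 and Fabp5 was not tested.

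Within the vehicle group, replicate 1 was the lowest liver for Fabp3, Fabp4 and Fabp5 and for the macrophage sum (364 CPM), the cholangiocyte sum (89.8 CPM) and the stellate cell sum (217 CPM). Across groups Fabp4 did not follow the macrophage sum in every pair of livers. OA-NO2 replicate 3 held 64.6 CPM of Fabp4 at a macrophage sum of 199, while OA replicate 2 held 40.6 CPM at 564. Chow livers were lowest in both, with Fabp4 at most 9.15 CPM and the sum at most 119.5 CPM. Among the NASH-diet groups the OA-NO2 group had the lowest mean Fabp4 (45.7 CPM) and the lowest range of the sum (145 to 259 CPM). Fabp4 was not called between these groups. Of 8 Kupffer cell markers, which label resident macrophages, 2 were called higher and 3 lower in vehicle over chow. Of 11 endothelial markers, 2 were called higher in vehicle over chow, 2 in OA over chow and 1 in OA-NO2 over chow, with 0 lower in each. Their sum ranged from 168 to 263 CPM in chow, 198 to 268 with vehicle, 216 to 247 under OA and 199 to 225 under OA-NO2. Their part in the level of Fabp4 was not tested.

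**Figure D4:**
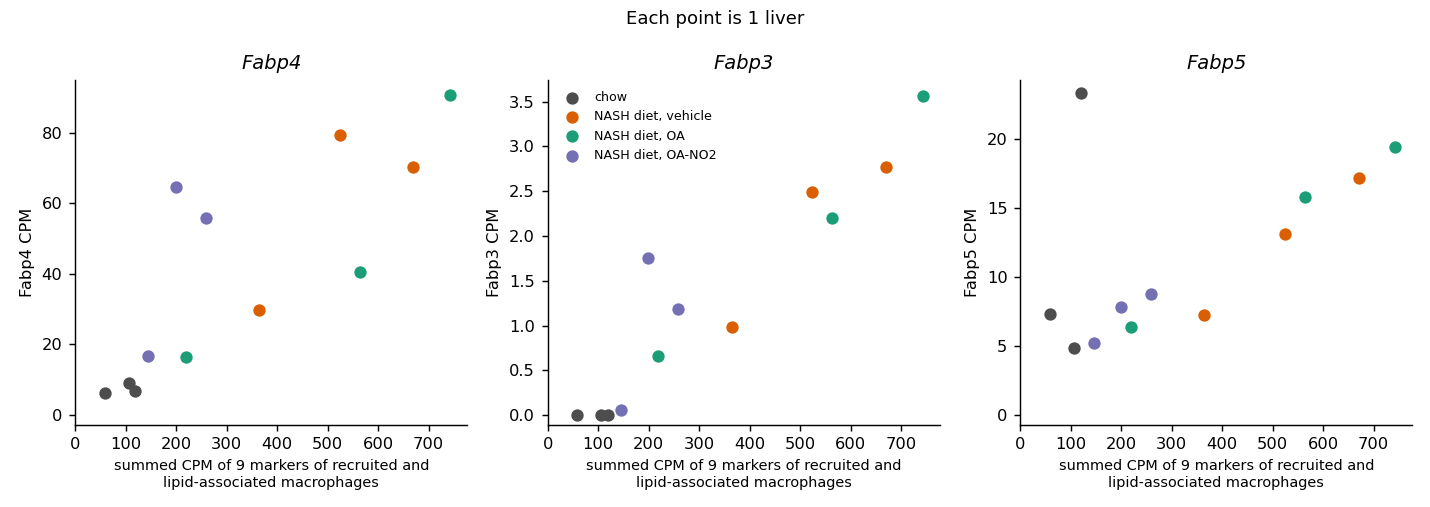
Fabp4, Fabp3 and Fabp5 CPM against the summed CPM of 9 markers of recruited and lipid-associated macrophages, 1 point per liver. Chow livers lie at sums up to 119.5, and chow replicate 3 stands apart for Fabp5 at 23.4 CPM.

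The adipocyte genes Adipoq, Plin1 and Lep were at or near 0 in most livers, beside Fabp4. Adipoq was at most 0.312 CPM, Plin1 at most 0.0604 CPM and Lep at most 0.0602 CPM in 11 of the 12 livers. Vehicle replicate 1 held Adipoq at 1.86, Plin1 at 0.699 and Lep at 0.373 CPM, and that liver was the lowest of its group for Fabp4. Retn was 0.419 CPM in that liver and at most 0.0640 CPM in the others. Adig differed from these, at 0, 0 and 0.0640 CPM in chow replicates 1 to 3. In the NASH-diet livers Adig lay between 0.102 and 1.63 CPM, highest in OA-NO2 replicate 3. The sum of the 7 adipocyte markers in the table (4.35 to 7.17 CPM in chow, 15.1 to 34.2 with vehicle, 10.9 to 83.4 with OA, 63.4 to 130 with OA-NO2) was mostly Cfd, complement factor D. Only 2 of the list were tested, Cfd and Adrb3, the latter at 1.22 to 4.14 CPM. Over chow, 1 was called higher and 0 lower in each NASH-diet group. With OA this was Cfd (log2 fold change 3.43 ± 0.74, edgeR adjusted p = 0.0139).

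Of 11 striated muscle markers, 6 were in the table, and their sum stayed between 0.104 and 0.676 CPM in the 12 livers, beside Fabp3. Among the 5 of 8 enterocyte markers in the table, read beside Fabp2, Lct was at most 0.107 CPM and Alpi at most 0.0602 CPM. The enterocyte sum, mostly Anpep, ranged from 102 to 140 CPM over the livers. Of 7 markers of glia and Schwann cells, read beside Fabp7, 4 were tested and 0 called in vehicle over chow. The sum of the 7 ranged from 2.50 to 5.57 CPM in chow and from 5.64 to 6.82 with vehicle. It ranged from 5.84 to 6.97 CPM with OA and from 4.61 to 8.85 with OA-NO2. Hepatocyte markers, read beside Fabp1, included 6 of 10 called lower in vehicle over chow (median log2 fold change -0.83), 2 in OA over chow and 0 in OA-NO2 over chow. In vehicle over chow the number lower was 6 of 10 with DESeq2's size factors in edgeR and 2 of 10 on library size alone. Their part in the level of Fabp1 was not tested.

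The genes around fatty acid binding were read from lists, with counts of called genes given for vehicle over chow. Of 16 tested genes of fatty acid uptake and activation, 2 were higher and 6 lower (median log2 fold change -0.19). The higher ones were Lpl, the lipase that frees fatty acids from lipoproteins (3.20 ± 0.47, edgeR adjusted p = 0.00252), and Vldlr, a lipoprotein receptor (2.07 ± 0.29, adjusted p = 0.00224). Among the lower ones were the fatty acid transporters Slc27a1 (-1.21 ± 0.29) and Slc27a2 (-0.98 ± 0.23). With DESeq2's size factors in edgeR the list again had 2 higher and 6 lower. On library size alone 8 were called higher and 0 lower, so no fall stayed called on that scale. Slc27a1 was then at -0.68 (adjusted p = 0.0542) and Slc27a2 at -0.45 (0.0672), while Lpl and Vldlr stayed called.

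Of 21 tested PPAR-alpha targets of fatty acid oxidation, genes that share with Fabp1 the regulator named above, 10 were lower and 1 higher (median -0.64, against -0.01 for all genes). Lowest in p were Hadha (-0.79 ± 0.18), a subunit of the mitochondrial trifunctional protein, the omega-hydroxylases Cyp4a10 (-1.86 ± 0.44) and Cyp4a14 (-2.04 ± 0.49), and Hadhb (-0.72 ± 0.19). Fabp1, at -0.69, lay near the median of that list and also near those of lipoprotein assembly (-0.74) and of the hepatocyte markers (-0.83). Whether a shared regulator had a part in this was not tested. With DESeq2's size factors in edgeR 9 of these targets were lower and 1 higher. On library size alone 2 were lower (Cyp4a10 and Cyp4a14) and 3 higher. In OA over chow 1 was lower and 1 higher, and in OA-NO2 over chow 1, Acot2, was higher and 0 lower.

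PPAR-gamma targets and lipid droplet genes, the neighbours of Fabp4 in adipocytes, included 4 higher and 0 lower of 14 tested (median 0.54). These were Cidea (4.16 ± 0.34), Cidec (1.77 ± 0.22), Plin4 (2.54 ± 0.37) and Mogat1 (1.27 ± 0.27), each called in OA over chow and in OA-NO2 over chow too. DESeq2's size factors in edgeR made that 5 higher, and library size alone made it 9. Pparg itself, the receptor, was called higher in vehicle over chow (1.105 ± 0.24, adjusted p = 0.00925), and among 10 receptors and partners the coactivator Ppargc1a was called lower (-0.69 ± 0.17), a fall not called with library size alone (-0.17). With DESeq2's size factors in edgeR the receptors and partners again had 1 higher and 1 lower.

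Other carriers of lipid were mostly not called. Of 12 tested cytosolic carriers, 1 was higher (Gltp, a glycolipid carrier, 1.61 ± 0.30) and 3 lower: the sterol carriers Stard4 (-1.60 ± 0.25) and Stard5 (-0.51 ± 0.16) and the phosphatidylcholine carrier Pctp (-0.69 ± 0.21). With DESeq2's size factors in edgeR the counts stayed at 1 higher and 3 lower. On library size alone 4 of the 12 were called higher, Gltp among them, and 1 lower, Stard4. The related genes Fabp6 and Fabp12 held 3 and 9 counts in all. Lipoprotein assembly gave 0 higher and 2 lower of 7, Mttp (-0.74 ± 0.16) and Tm6sf2 (-0.95 ± 0.26), neither called with library size alone, when 2 others, Apoa4 (1.16) and Mogat2 (1.88), were called higher. With DESeq2's size factors in edgeR this list again had 0 higher and 2 lower.

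Of the 80 tested genes of these 6 lists edgeR called 31 in vehicle over chow, 15 in OA over chow and 6 in OA-NO2 over chow. These are 38.8%, 18.8% and 7.5% of them, beside 19.3%, 8.56% and 0.684% of all tested genes. Between the pump groups it called 0 of the 80 in each comparison, with 2 (OA over vehicle), 32 (OA-NO2 over vehicle) and 20 (OA-NO2 over OA) at an unadjusted p under 0.05. These are 2.5%, 40% and 25% of them, beside the 3.9%, 15.8% and 12% of all tested genes. DESeq2 called 0, 9 and 2 of them. Cidea and Slc27a1 were among the genes DESeq2 called in both comparisons of OA-NO2 with a pump group.

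**Figure D5:**
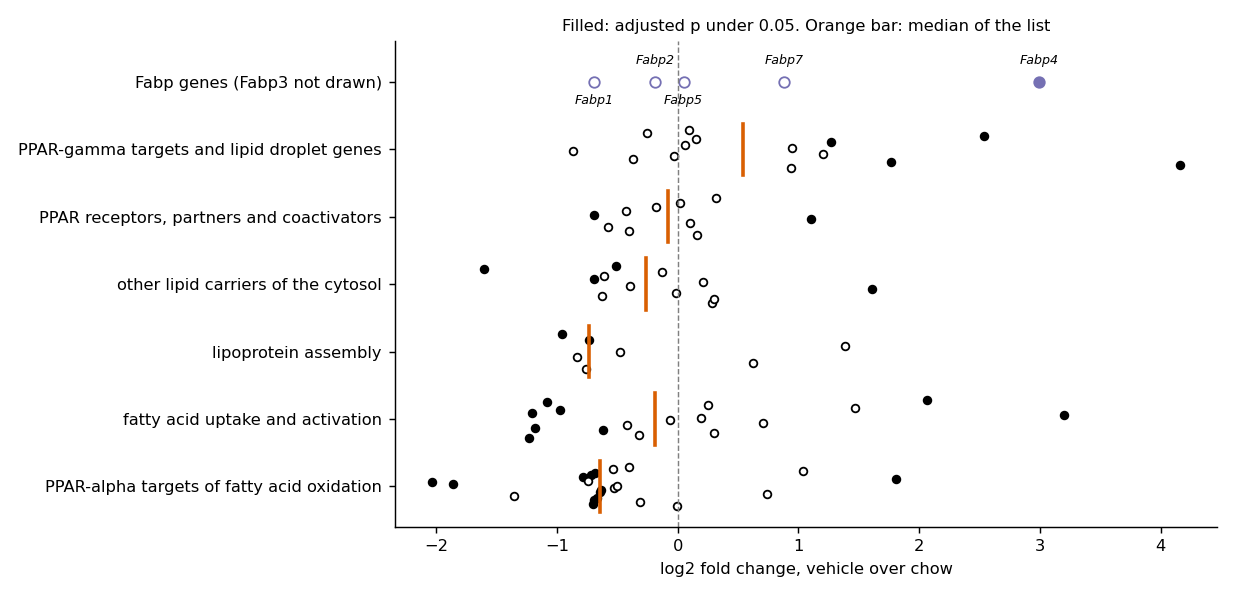
Log2 fold changes for vehicle over chow of the Fabp genes and of 6 lists, 1 point per gene, filled where edgeR's adjusted p was under 0.05, with the list median as an orange bar. Fabp4, at 2.996, lies among the highest points drawn. Fabp1, at -0.69, lies beside the medians of the PPAR-alpha targets, -0.64, and of lipoprotein assembly, -0.74.

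The genes most like each member were those with the smallest root mean square difference of log2 CPM over the 12 libraries, after subtracting each gene's mean, among 11302 genes. Points share libraries and scaling, so this is a description. Fabp1 was closest to Aadac (0.12), Glyat (0.15), Zfand6 (0.15), Hspe1 (0.16) and Sucla2 (0.16), against a standard deviation of 0.43 in its own log2 values. Mean Aadac, a liver esterase, was 642 CPM in chow and 379 with vehicle. Fabp2, which hardly varied (SD 0.26), was closest to Srp9 (0.07), Eny2 (0.08), Ndufa4 (0.08), Mgst1 (0.09) and Mettl23 (0.09).

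Fabp3 was closest to the collagenase gene Mmp13 (0.61), Ly6d (0.61), Trem2 (0.61), S100a11 (0.62) and Elovl7 (0.65), against its own SD of 2.01. Mean Mmp13 was 0.171 CPM in chow and 7.24 with vehicle. Trem2, a receptor that is also in the recruited macrophage list, averaged 1.06 CPM in chow, 17.7 with vehicle, 15.0 under OA and 4.83 under OA-NO2. Fabp4 was closest to Limk1 (0.45), Uap1l1 (0.48), Ccdc120 (0.48), Scube1 (0.48) and Anxa2 (0.50), against its own SD of 1.41. Anxa2, a membrane-binding annexin, averaged 14.5 CPM in chow, 145 with vehicle, 102 under OA and 54.0 under OA-NO2. Fabp4 itself averaged 45.7 CPM with OA-NO2, so it stayed nearer to its vehicle mean of 59.7 than Anxa2 did.

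Fabp5 had the loosest matches for its own SD of 0.77, with Ntf3 (0.29), Slc16a3 (0.38), Col15a1 (0.41), Mpzl1 (0.41) and Wdr19 (0.42). Fabp7 was closest to Hacd4 (0.22), Etv5 (0.24), Cd44 (0.25) and Cd5l (0.25), against its own SD of 0.74. Cd5l, which resident macrophages secrete, averaged 124 CPM in chow, 273 with vehicle, 329 under OA and 202 under OA-NO2. Among the members themselves the closest pair was Fabp1 and Fabp2 (0.24) and the next was Fabp7 and Fabp2 (0.74), while Fabp3 and Fabp4 stood 0.77 apart and Fabp1 and Fabp3 2.25 apart. These distances are not scaled for spread. The 0.24 of Fabp1 and Fabp2 was close to the SD of Fabp2 (0.26) and below that of Fabp1 (0.43). That of Fabp7 and Fabp2 was no smaller than the SD of Fabp7, while 0.77 lay well below the SDs of Fabp3 (2.01) and Fabp4 (1.41). The order of the pairs thus depends on how much each member varied.

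The spread within a group also differed between members. edgeR's biological coefficient of variation, the replicate spread left after counting error, was 0.203 for Fabp2, 0.245 for Fabp1 and 0.269 for Fabp7. It was 0.438 for Fabp5, 0.464 for Fabp4 and 0.661 for Fabp3, against 0.226 for the whole table. Within the OA group the highest liver held 5.52 times the Fabp4 of the lowest, and 1.03 times the Fabp2. The members that were called, Fabp3 and Fabp4, were thus the most variable of the 6, and Fabp2 the least.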

How the data were processed

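The authors deposited raw read counts, whole numbers with no scaling, for 24983 genes in each of 12 libraries. Per the labels' protocols, Trizol RNA was made into KAPA mRNA HyperPrep libraries and sequenced as paired reads of 76 bases. Per the submitters' processing notes, reads were handled with Trimmomatic 0.35, HISAT2 2.1.0, SAMtools 1.2 and HTSeq on GRCm38. Not given in the sources used here are the annotation release, strand setting and treatment of multiply mapped reads. Symbols were found for 24914 identifiers. The depth was 8462590 to 20613777 counts. Genes were filtered with edgeR 4.0.16 defaults (minimum count 10, minimum total 15), scaled by TMM and fitted in 1 quasi-likelihood model of 12 libraries and 4 groups, in R 4.3.3, with Benjamini-Hochberg adjustment over 14469 genes. Standard errors derive from the F statistic and are approximate. DESeq2 1.42.0 was an alternative, beside other scalings, no filter, 2 groups only, Fabp3 with its pseudogene, and leaving out each library. On simulated counts with vehicle over chow changed, 95.9% of 98 genes changed by 2 on the log2 scale and 44.9% of 98 changed by 1 were recovered. The members, gene lists and tests were chosen with earlier results of these data known. Named genes were the 6 members, up to 4 called genes per list with the lowest p in vehicle over chow, and the 5 genes most like each member, except items that are not reported here. Other genes given values were picked after their values were seen. Replicates are separate mice, told apart by ear tag, and their numbers follow the order of deposit.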

Additional observations from a re-analysis of the deposited data

How the results depend on the processing

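No paired analysis was possible because the labels give the mice no shared replicate numbers. Over the 36 values of a member in a comparison, 431 alternatives were computed: 375 kept direction and side of the threshold, 16 passed it anew, 9 lost it and 31 changed sign, 0 of the latter called. With library size alone Fabp2 changed sign to 0.33 (vehicle over chow), 0.19 (OA over chow), 0.15 (OA-NO2 over chow), -0.18 (OA-NO2 over vehicle) and -0.044 (OA-NO2 over OA), and Fabp1 to -0.057 (OA-NO2 over vehicle). The other changes of sign came from leaving out 1 library, with values between these bounds: Fabp5 -0.34 to 1.07 (vehicle over chow), -0.19 to 1.23 (OA over chow), -1.12 to 0.30 (OA-NO2 over chow) and -0.17 to 0.47 (OA over vehicle); Fabp7 -0.13 to 0.49 (OA-NO2 over chow); Fabp2 -0.30 to 0.10 (OA-NO2 over chow), -0.10 to 0.017 (OA over vehicle), -0.11 to 0.29 (OA-NO2 over vehicle) and -0.068 to 0.33 (OA-NO2 over OA). For OA over vehicle they were -0.24 to 0.013 for Fabp1, -0.52 to 0.44 for Fabp3 and -1.06 to 0.11 for Fabp4, and Fabp4 also spanned -0.72 to 0.010 (OA-NO2 over vehicle) and -0.51 to 0.67 (OA-NO2 over OA). Genes called numbered 2786 for vehicle over chow (5758 with library size alone, 1200 to 2276 without 1 library), 1238 for OA over chow (3776 with library size alone, 1882 with DESeq2, 776 on 2 groups only, 347 to 2232 without 1 library) and 99 for OA-NO2 over chow (1127, 653 and 53 in that order, 262 with no filter, 15 to 71 without 1 library). With library size alone 97.5% of the 1127 and 96.6% of the 3776 were higher. For OA-NO2 over vehicle 3 were called (300 with DESeq2, 151 with no filter, 62 on 2 groups only, 1 to 4 without 1 library), and for OA-NO2 over OA 1 (51 with DESeq2, 10 with no filter, 1 to 130 without 1 library). For OA over vehicle 0 were called by edgeR and by DESeq2, with 532 at an unadjusted p under 0.05 in DESeq2. The cause of these differences was not tested. With 3 libraries a group, and at most 70 counts of Fabp3 in a library, small changes of the low members could not be detected.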
